A study of Mus musculus with 12 samples.

Results

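The collagen genes of mouse ear skin were read as all genes whose name on the array has the form Col, number, a, number, apart from 4 left out by the rule used here, and with a probe well above background on at least 2 of 12 arrays. This gave 40 of the 24078 genes tested. All 40 collagen names on the array outside those 4 passed, on 74 of their 84 probes, and 35 of the 40 were well above background on all 12 arrays. By type and tissue, 8 were grouped as fibrillar collagens, 8 as collagens of basement membranes, 7 as cartilage collagens and 17 as other types. The cartilage group is set by tissue, so the fibrillar group leaves out cartilage collagens that form fibrils, such as Col2a1.

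RNA of whole ear skin was hybridized to 12 single-colour 60-mer arrays in 10 groups. The mice were C57BL/6J, either wild type (WT) or with the genotypes Tlr7-/-, Tlr9-/-, Tlr7-/-Tlr9-/- or Card14-/-, and were untreated or had been treated 4 h before with imiquimod (IMQ), which activates the endosomal receptor TLR7, as 62.5 mg of a 5% cream. In keratinocytes CARD14 is an adaptor upstream of NF-kB. Each array held 200 ng of RNA pooled from 6 to 8 mice, and no group received cream without IMQ. There was 1 untreated array per genotype and 1 IMQ array each of WT, Tlr7-/- and Tlr9-/-, while Tlr7-/-Tlr9-/- and Card14-/- had 2 IMQ arrays each. The sources used here do not say whether those repeats came from separate pools. The p-values of single-genotype responses and of differences from WT therefore rest on a spread between arrays that may be technical. Those of the average response and of Tlr7 dependence rest on the spread of the response between genotypes. Sex and age of the mice are not given in the labels.

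Slide 1 held every untreated array and the 3 single IMQ arrays, and slide 2 held the 4 repeat IMQ arrays. The share of spots well above background ran from 60.1% to 65.7%. The 75th percentile of the signal before normalization was 1070 to 1236 on untreated arrays and 527 to 779 on IMQ arrays. The Tlr7 probe lay at 4.03 to 5.85 (log2 signal) on arrays lacking Tlr7 and at 7.36 to 8.12 on the others, and the Card14 probe at 9.63 to 9.89 on Card14-/- arrays and 10.82 to 11.65 on the others. The Tlr9 probe lay at 10.95 to 11.39 on all arrays and did not separate the arrays labelled as lacking Tlr9. Whether it lies in the deleted part is not given, so it is no check of those labels.

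Collagens are proteins of 3 chains wound into a triple helix, which needs glycine in the first place of each repeated triplet of amino acids. Fibrillar collagens, made in skin mainly by dermal fibroblasts, give the dermis its tensile strength, and type IV collagen forms the network of the basement membrane under the epidermis and around vessels. The ear also holds a plate of elastic cartilage, whose cells make the collagens of types II, IX and XI. Collagen mRNA is long-lived and collagen protein turns over slowly in adult skin.

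Levels below are log2 of the quantile-normalized signal of 1 probe per gene. They compare arrays within a gene and never genes with each other. In whole tissue, fewer cells of a type and less RNA per cell cannot be told apart.

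The collagen genes spanned a wider range over the untreated pools than genes in general, with an average response of similar size. The range over the 5 untreated arrays exceeded the size of the average response in 34 of the 40 genes (85.0%), against 64.3% of all genes. These are unlike measures, since opposite responses cancel in the average. The median range was 1.05 for the collagen genes and 0.37 for all genes tested, whereas the median size of the average response was 0.22 and 0.26. The untreated WT array was the highest of the 5 in 26 collagen genes (65.0%, against 26.7% of all genes), and the untreated Tlr9-/- array was the lowest in 31 (77.5%, against 18.3%). WT was at least 1 above Tlr9-/- in 20 of the 40 collagen genes, against 2.64% of all genes. With 1 pool per genotype these differences have no test, and genotype, pool and array cannot be told apart. The median SD between repeat arrays was 0.05 over all genes. Those are IMQ arrays that may share a pool, so this is no measure of the spread between untreated pools.

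**Figure D1:**
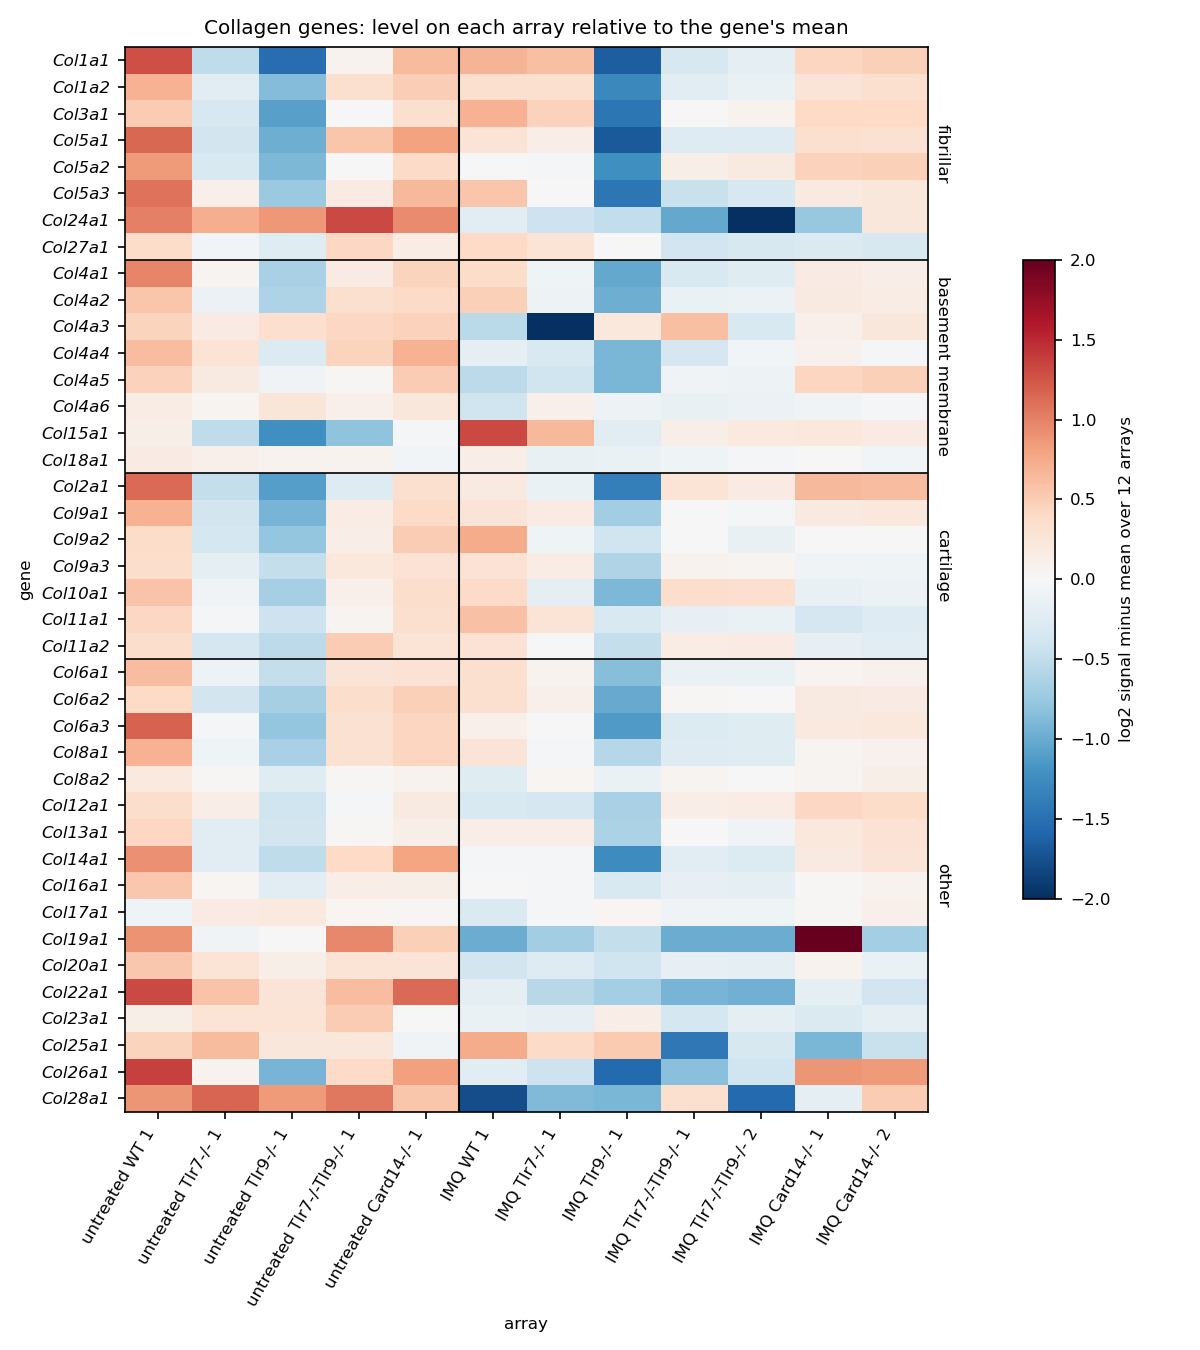
Log2 signal of each of the 40 collagen genes (rows) on each of the 12 arrays (columns), minus the gene's mean over the 12 arrays, with the colour scale ending at -2 and 2. The untreated WT column is mostly above the row means and both Tlr9-/- columns are mostly below them, with a median over the 40 genes of 0.55, -0.48 and -0.66.

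Among the fibrillar collagens this order was plainest. Col1a1, which encodes the chain present in 2 copies in each type I molecule, lay at 17.83 in untreated WT, 17.17 in Card14-/-, 16.61 in Tlr7-/-Tlr9-/-, 16.02 in Tlr7-/- and 15.01 in Tlr9-/-. After IMQ it lay at 17.21 in WT, 17.13 in Tlr7-/-, 16.97 and 17.00 in Card14-/-, 16.22 and 16.35 in Tlr7-/-Tlr9-/- and 14.88 in Tlr9-/-. The untreated range was 7.04-fold on this probe, and the Tlr9-/- array was the lowest both without and with IMQ. The range was smaller on the other 2 Col1a1 probes that passed, from 14.96 to 16.99 and from 14.62 to 15.95. Col1a2, the other chain of type I collagen and the fibrillar gene with the brightest probe, ran in the same order from 18.29 in untreated WT through 18.09, 17.93 and 17.40 to 16.74 in Tlr9-/-. On its IMQ arrays it lay at 17.92 in WT, 17.92 in Tlr7-/-, 16.32 in Tlr9-/-, 17.39 and 17.47 in Tlr7-/-Tlr9-/-, and 17.87 and 17.93 in Card14-/-. Col3a1, the collagen of fine dermal fibrils, ranged from 15.25 to 16.85 in untreated skin, and the type V genes Col5a1 and Col5a2, whose protein sets the diameter of type I fibrils, from 12.18 to 14.30 and from 8.60 to 10.35. On the probes used for these genes untreated WT was the highest array and untreated Tlr9-/- the lowest. On other probes untreated WT was not always highest, with Card14-/- at 15.95 and WT at 15.60 on one of Col1a1, and Tlr7-/- at 6.39 and WT at 6.30 on one of Col5a2. Col27a1 had a smaller range, 8.78 to 9.44, and was highest in Tlr7-/-Tlr9-/-.

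Cartilage collagens, which are made by other cells, were also lowest in Tlr9-/-, and untreated WT was the highest array in 5 of the 7, all but Col9a2 and Col11a2. Col2a1, the main collagen of cartilage, lay at 12.67 in untreated WT, 11.86 in Card14-/-, 11.28 in Tlr7-/-Tlr9-/-, 11.05 in Tlr7-/- and 10.43 in Tlr9-/-. On the IMQ arrays Col2a1 lay at 11.71 in WT, 11.40 in Tlr7-/-, 10.17 in Tlr9-/-, 11.80 and 11.70 in Tlr7-/-Tlr9-/-, and 12.17 and 12.15 in Card14-/-. The Tlr9-/- group was the lowest of the 5 genotypes in all 7 cartilage genes, both without IMQ and, by group means, with it. The others spanned smaller untreated ranges, from 0.82 in Col11a1 and 0.83 in Col9a3 to 1.62 in Col9a1. Col10a1, a collagen of hypertrophic cartilage, ranged from 8.90 to 10.14. Of 18 names listed as chondrocyte markers, some of them older names of the same gene, 15 passed the probe filter. Matn3 lay near background, at 3.70 on the Tlr9-/- IMQ array, where the lowest signal well above background was 4.13. Acan, the large proteoglycan of cartilage, lay at 13.18 in untreated WT and 12.27 in Tlr9-/-, while Comp, a cartilage matrix glycoprotein, ran the other way, at 13.01 and 13.70. Untreated WT was highest in 7 of these 15 markers and Tlr9-/- lowest in 7.

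In the basement membrane group the type IV pair Col4a1 and Col4a2 had the same order of untreated arrays as Col1a1. These 2 genes encode the chains of the common type IV molecule and are transcribed from opposite strands, with RefSeq start sites 21 bases apart on GRCm38.p6. Col4a1 lay at 12.23 in untreated WT, 11.70 in Card14-/-, 11.41 in Tlr7-/-Tlr9-/-, 11.30 in Tlr7-/- and 10.59 in Tlr9-/-, and Col4a2 at 11.45, 11.28, 11.21, 10.77 and 10.27 in the same order. Other basement membrane genes did not share this full order. Over the 8 genes of the group, Tlr9-/- was the lowest untreated array in 5 and WT the highest in 4. Col15a1 was among both, at 7.20 in WT and 5.85 in Tlr9-/-. Col4a6, whose start site lies 1343 bases from that of Col4a5 on the other strand of chromosome X, ranged only from 10.91 to 11.10. Col18a1, the source of the fragment endostatin, ranged from 12.34 to 12.57 and is the basement membrane gene with the brightest probe. Its IMQ arrays lay at 12.53 in WT, 12.25 in Tlr7-/-, 12.26 in Tlr9-/-, 12.32 and 12.35 in Tlr7-/-Tlr9-/-, and 12.39 and 12.35 in Card14-/-.

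Among the other types, the 3 genes of type VI collagen, which forms beaded filaments around cells, had their lowest untreated array in Tlr9-/-: Col6a1 ranged from 14.56 to 15.66, Col6a2 from 11.10 to 12.23 and Col6a3 from 12.53 to 14.48. Col8a1, a network-forming collagen and the brightest probe of this group, lay at 17.26 in untreated WT, 17.00 in Card14-/-, 16.87 in Tlr7-/-Tlr9-/-, 16.48 in Tlr7-/- and 15.92 in Tlr9-/-. On IMQ arrays Col8a1 lay at 16.82 in WT, 16.52 in Tlr7-/-, 16.00 in Tlr9-/-, 16.31 and 16.32 in Tlr7-/-Tlr9-/-, and 16.62 and 16.66 in Card14-/-. Its partner Col8a2 ranged from 11.40 to 11.85. The fibril-associated Col12a1, Col14a1 and Col16a1 ranged from 9.07 to 9.81, from 7.62 to 9.04 and from 14.20 to 14.96, and Col26a1 from 5.35 to 7.66, each with WT highest and Tlr9-/- lowest. Col17a1, the transmembrane collagen of the hemidesmosomes of basal keratinocytes, ran the other way, at 14.47 in untreated WT and 14.75 in Tlr9-/-, a range of 0.28. Of the remaining transmembrane collagens, Col13a1 ranged from 7.03 to 7.82, Col23a1 from 7.68 to 8.17 and Col25a1 from 5.15 to 5.86.

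Lists of genes that act with collagens differed in how often untreated WT was highest and Tlr9-/- lowest, and no difference between lists was tested. Untreated WT was the highest array in 19 of 22 genes for folding and modifying collagen chains, in 11 of 13 for processing and cross-linking and in 20 of 23 for proteoglycans and glycoproteins on fibrils, and Tlr9-/- was lowest in 13, 8 and 18 of these. WT was highest in 14 of 19 basement membrane partners, 10 of 18 collagenases and inhibitors, 12 of 21 TGF-beta genes and 6 of 11 collagen receptors, with Tlr9-/- lowest in 9, 10, 12 and 3. WT was highest in 10 of 12 fibroblast, 9 of 10 endothelial and 8 of 9 macrophage markers, and in 0 of 8 keratinocyte markers, with Tlr9-/- lowest in 10, 8, 3 and 0. The median WT minus Tlr9-/- difference was 0.98 over the collagen genes, 0.55 over the fibroblast markers, 0.63 over the chondrocyte markers, 0.52 over the endothelial markers and -0.17 over the keratinocyte markers. Some markers are themselves matrix genes, such as Lox, which cross-links collagen. Hair follicle markers differed more than any other list named here, in another order: their median relative to each gene's mean ran from 2.50 in untreated Tlr7-/- to -1.04 in untreated Tlr7-/-Tlr9-/-, and from 2.86 to -3.69 on the IMQ arrays. The part of cell composition, hair cycle and array in the collagen differences was not tested.

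The average response to IMQ, the mean of the 5 IMQ minus untreated differences with genotype as a block, was small and mostly downward in the collagen genes. Col15a1 rose and 7 genes fell at an adjusted p under 0.05 (limma, Benjamini-Hochberg over all genes). Among all genes 26.2% were called, 10.5% rising and 15.7% falling, so the share of collagen genes that fell, 17.5%, was close to the background and the share that rose, 2.50%, below it. The difference was positive in 3 of the 40 genes, against 10065 of all 24078. Its median was -0.21, against -0.07 over all genes, and -0.16 in the fibrillar, -0.33 in the basement membrane, -0.05 in the cartilage and -0.28 in the other group. Of the 7 cartilage genes 0 were called, and the value farthest from 0 among them was -0.16 in Col10a1. There were 4 genes with no overlap between the untreated and the IMQ arrays, all lower after IMQ. This is 10.0% of the collagen genes against 13.1% of all genes in that direction, 8.63% in the other and 21.8% in either. They were Col20a1, Col22a1, Col24a1 and Col28a1. Col24a1 and Col28a1 passed the probe filter mainly on untreated arrays. Their lack of overlap rests on IMQ values mostly not well above background, and gives no support for a fall.

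**Figure D2:**
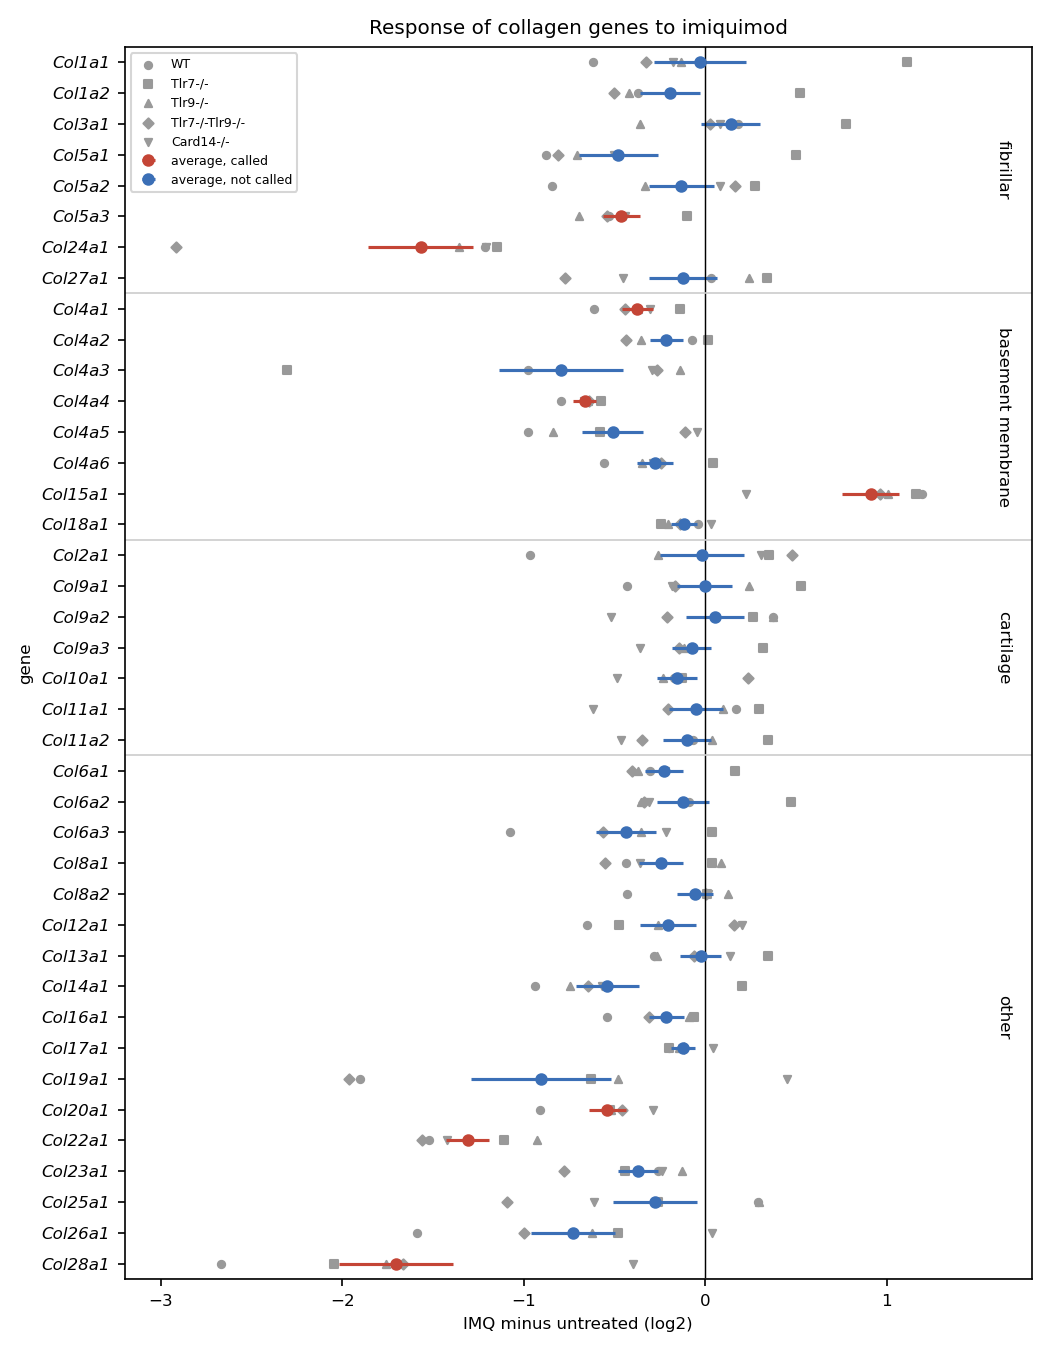
IMQ minus untreated difference (log2, x axis) of each of the 40 collagen genes (rows). Small grey symbols are the 5 genotypes and large dots the average with its standard error, red where called and blue where not. Col15a1 is the called gene on the right of 0, and 7 called genes lie on the left.

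Col22a1, a fibril-associated collagen known from tissue junctions such as that of muscle and tendon, fell in all 5 genotypes. It lay at 10.63 in untreated WT, 9.87 in Tlr7-/-, 9.56 in Tlr9-/-, 9.92 in Tlr7-/-Tlr9-/- and 10.44 in Card14-/-. After IMQ it lay at 9.11 in WT, 8.76 in Tlr7-/-, 8.63 in Tlr9-/-, 8.38 and 8.35 in Tlr7-/-Tlr9-/-, and 9.11 and 8.92 in Card14-/-. Every IMQ array was below every untreated array. The average response was -1.31 ± 0.12 (SE, 5 genotypes, 2.48-fold; adjusted p = 0.00620, limma), and it was negative in 5 of 5 genotypes.

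Col4a4, which with Col4a3 and Col4a5 builds a specialised type IV molecule best known from the kidney, had the smallest spread between genotypes among the called genes. Its untreated levels were 6.75 in WT, 6.40 in Tlr7-/-, 5.86 in Tlr9-/-, 6.57 in Tlr7-/-Tlr9-/- and 6.83 in Card14-/-. Its IMQ levels were 5.95 in WT, 5.83 in Tlr7-/-, 5.21 in Tlr9-/-, 5.79 and 6.07 in Tlr7-/-Tlr9-/-, and 6.22 and 6.11 in Card14-/-. The arrays of the 2 conditions overlapped, yet within each genotype the IMQ array was lower, by 0.57 to 0.80, giving -0.67 ± 0.06 (adjusted p = 0.00696, limma). Its second probe averaged 0.01 and had no common sign.

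Col20a1, a fibril-associated collagen, lay between 7.28 and 7.70 on untreated arrays (7.70 in WT, 7.43 in Tlr7-/-, 7.28 in Tlr9-/-, 7.44 in Tlr7-/-Tlr9-/-, 7.42 in Card14-/-). The IMQ arrays lay at 6.79 in WT, 6.91 in Tlr7-/-, 6.77 in Tlr9-/-, 7.01 and 6.97 in Tlr7-/-Tlr9-/-, and 7.23 and 7.03 in Card14-/-, below every untreated array. The change was -0.54 ± 0.10 (adjusted p = 0.0188, limma).

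The other called falls among well-measured genes were smaller. Col5a3, a type V chain, lay on untreated arrays at 12.32 in WT, 11.34 in Tlr7-/-, 10.49 in Tlr9-/-, 11.39 in Tlr7-/-Tlr9-/- and 11.88 in Card14-/-. With IMQ it lay at 11.79 in WT, 11.24 in Tlr7-/-, 9.80 in Tlr9-/-, 10.79 and 10.91 in Tlr7-/-Tlr9-/-, and 11.41 and 11.46 in Card14-/-. The conditions overlapped widely, and the average response was -0.46 ± 0.10 (adjusted p = 0.0261, limma). Col4a1 had -0.37 ± 0.09 (adjusted p = 0.0305, limma), with IMQ levels of 11.61 in WT, 11.16 in Tlr7-/-, 10.22 in Tlr9-/-, 10.94 and 11.00 in Tlr7-/-Tlr9-/-, and 11.41 and 11.38 in Card14-/-. Its neighbour Col4a2 had -0.21 ± 0.09 and was not called (adjusted p = 0.130, limma), and whether the 2 genes differ was not tested. Without the Tlr9-/- pair of arrays 2 collagen genes were called, Col22a1 and Col4a4, against 1359 of all 24078 genes. Without the Tlr7-/-Tlr9-/- arrays 5 were called, against 3441 of all genes. With the slide as a further block on all 12 arrays 12 were called, against 11945. Slide 2 held only IMQ arrays of Tlr7-/-Tlr9-/- and Card14-/-, so that fit takes the response from WT, Tlr7-/- and Tlr9-/- only. The repeat arrays enter it singly, and the spread between them may be technical. In the main fit the counts were 8 collagen genes and 6313 of all genes.

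Col24a1 and Col28a1 were called at low signal, and they passed the probe filter mainly on untreated arrays. Col24a1, a fibrillar collagen of developing bone and cornea, was well above background on the 5 untreated arrays, at 4.87 to 5.45, and on 1 of 7 IMQ arrays, whose levels ran from 1.96 to 4.36. Its fitted change was -1.57 ± 0.29 (adjusted p = 0.0176, limma), which is no measure of size where a probe is not well above background. Set against the lowest signal that was well above background on each array, untreated was at least 1.90-fold above IMQ in WT, 1.66-fold in Tlr7-/-, 1.84-fold in Tlr9-/- and 2.31-fold in Tlr7-/-Tlr9-/-. Col28a1, which is known from Schwann cells, was well above background on 4 untreated arrays and 1 IMQ array, with levels of 4.12 to 4.72 untreated and 1.78 to 4.08 after IMQ. Its fitted change was -1.71 ± 0.31 (adjusted p = 0.0178, limma), and the same bounds were 1.18-fold in WT, 1.50-fold in Tlr7-/-, 1.21-fold in Tlr9-/- and 1.29-fold in Tlr7-/-Tlr9-/-. Of 10 Schwann cell markers, 4 fell and 0 rose, Sox10 by 1.24 and Prx by 0.80 on the log2 scale. The median level of the 10 relative to each gene's mean ran from -0.03 to 0.42 on untreated arrays and from -0.35 to -0.03 on IMQ arrays. Their part in the Col28a1 change was not tested. Col4a3 and Col19a1 were also partly below background, on 5 and 10 of the 12 arrays, and were not called. With values that were not well above background raised to that limit, the median response of the 40 genes was -0.21.

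Col15a1 was the called rise. It encodes a proteoglycan of basement membranes that joins them to the fibrils beneath and is abundant around small vessels. It lay at 7.20 in untreated WT, 6.57 in Tlr7-/-, 5.85 in Tlr9-/-, 6.27 in Tlr7-/-Tlr9-/- and 7.04 in Card14-/-. After IMQ it lay at 8.40 in WT, 7.73 in Tlr7-/-, 6.86 in Tlr9-/-, 7.20 and 7.28 in Tlr7-/-Tlr9-/-, and 7.29 and 7.24 in Card14-/-. The arrays of the 2 conditions overlapped because the genotypes differed in level, but the difference was positive in 5 of 5 genotypes, at 0.96 to 1.19 in 4 of them and 0.23 in Card14-/-. The average response was 0.91 ± 0.16 (1.88-fold, adjusted p = 0.0157, limma). A second Col15a1 probe, well above background on 4 arrays, averaged -0.33, and the mean of both probes was not called.

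Of 10 endothelial markers, 6 rose with IMQ and 1 fell. The largest rises were Cldn5, a tight junction protein of endothelium, at 0.81 and Esam at 0.69, and Tek fell by 0.38 on the log2 scale. Their median level relative to each gene's mean was -0.56 to 0.05 on untreated arrays and -0.04 to 0.80 on IMQ arrays. The summed signal (log2) ran from 13.67 to 14.22 and from 14.13 to 15.17. The sum weighs the brightest probes most, chiefly that of Egfl7, at 13.04 in untreated WT and 14.06 in WT after IMQ. Of 10 pericyte and smooth muscle markers, 0 rose and 4 fell, Rgs5 by 1.63 and Myh11 by 0.74. The part of these cells in the Col15a1 rise was not tested.

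Col15a1 was read on a probe inside the triple-helix repeat, and its sequence is shown so that its makeup can be read beside the measured rise. Glycine is encoded by GGN, so in a helix-coding sequence GGN recurs at a fixed spacing of 9 bases. Of 56605 probes searched, 9 have GGN at each such place in a frame free of stop codons, and 4 of the 9 belong to collagen genes, those of Col15a1, Col6a3, Col5a3 and Col11a2. A Col22a1 probe with GGN in 5 of 6 places is shown with them, since it disagreed with the probe used for that gene. The sequences run 5′ to 3′ on the strand of the mRNA, with the GGN codons in capitals.
Col15a1: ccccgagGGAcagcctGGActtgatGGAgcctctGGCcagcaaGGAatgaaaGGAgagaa
Col6a3: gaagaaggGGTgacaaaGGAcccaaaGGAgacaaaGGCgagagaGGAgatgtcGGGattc
Col5a3: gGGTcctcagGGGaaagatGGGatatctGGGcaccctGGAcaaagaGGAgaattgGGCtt
Col11a2: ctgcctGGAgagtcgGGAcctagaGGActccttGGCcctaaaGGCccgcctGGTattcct
Col22a1: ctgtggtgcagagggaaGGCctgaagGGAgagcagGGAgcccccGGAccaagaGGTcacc
On mm9, the build of the array files, they lie at chr4:47283786-47283845 (plus strand), chr1:92689602-92690594 (minus), chr9:20590066-20590795 (minus), chr17:34189287-34189453 (plus) and chr15:71767749-71768433 (minus). All but the Col15a1 probe span more than their 60 bases and so cross at least 1 exon junction.

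The purines A and G make up 65.0% of the Col15a1 probe, with a longest run of 12, and 78.3% of the Col6a3 probe, the highest share among the 74 collagen probes. Over all 37122 probes that passed, the median average response rose with this share, from -0.09 at 40 to 50% purine to 0.08 above 64 and up to 68%, 0.27 above 68 and up to 72%, 0.82 above 72 and up to 76% and 1.26 above 76%. In the range that holds the Col15a1 probe, 11.0% of 1280 probes reached its average response, against 3.22% of the 14390 probes at 40 to 50%. The second Col15a1 probe has the same purine share and a response of the opposite sign. The part of probe composition in the Col15a1 rise was not tested.

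**Figure D3:**
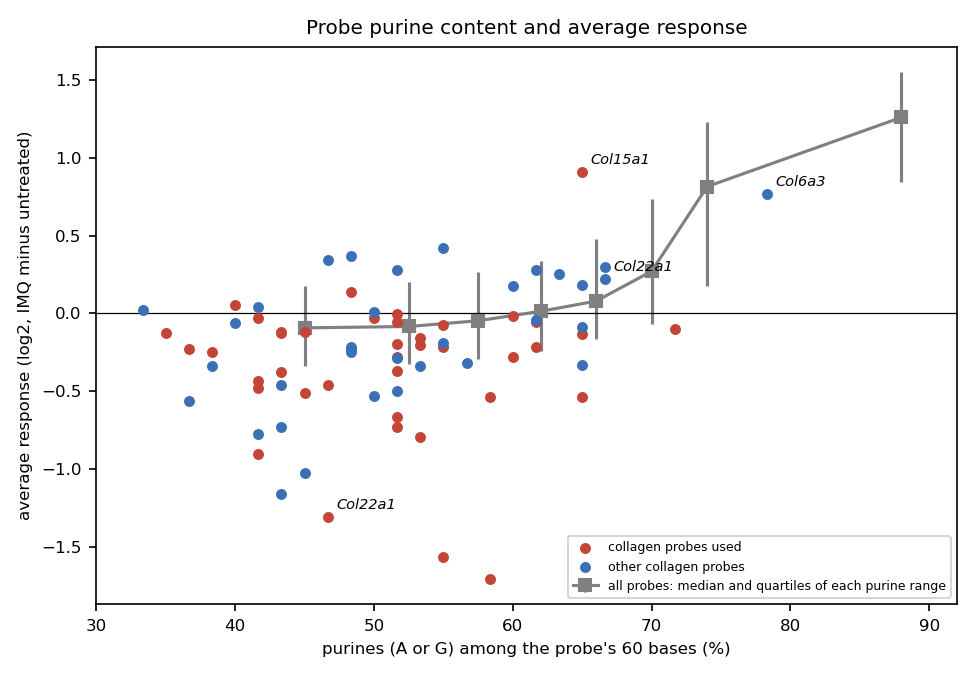
Average response (log2, y axis) against the share of purines in the probe (x axis). Grey squares with bars are the median and quartiles of all probes within ranges of purine share above 40%, red points the 40 collagen probes used and blue points the 34 other collagen probes that passed. The Col15a1 probe lies above the grey upper quartile of its range, and the 2 Col22a1 probes lie on either side of 0.

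Probes of the same collagen gene did not always agree about the response. Of 34 other probes that passed, in 25 genes, 15 had an average response of the opposite sign to the probe used. The share over all genes is not given, so this is not shown to be particular to collagen genes. Some of these probes were well above background on few arrays, such as 2 for one of Col13a1. In some genes, such as Col9a1, the probe used averaged near 0, where the sign says little. Col22a1 averaged -1.31 on the probe used, with 46.7% purine, and 0.22 on the helix probe shown above, with 66.7%. Col6a3 averaged -0.44 on the probe used, with 41.7% purine, and 0.77 on the helix probe. A pair of Col1a1 probes that overlap by 20 bases on chromosome 11 gave average responses of 0.02 at 33.3% purine and 0.25 at 63.3%. By genotype, in the same order, they gave -0.06 and 0.64 in WT, 1.01 and 0.76 in Tlr7-/-, -0.31 and -0.30 in Tlr9-/-, -0.34 and 0.24 in Tlr7-/-Tlr9-/-, and -0.19 and -0.09 in Card14-/-. Among the 15 collagen genes with passing probes at least 10 points apart in purine share, the richer probe had the higher average response in 11 (73.3%, against 58.9% of 4717 genes). The pairs of Col13a1, Col25a1 and Col28a1 each include a probe well above background on only 2 arrays, whose response is no measure of size. Genes where the richer probe was not the higher include Col5a2, whose purine-poorer probe gave 2.04 in WT and whose richer probe gave -0.84. That poorer probe and 12 others name Ensembl transcripts only, among them the probes used for Col1a1, Col26a1 and Col4a4. In Col27a1 such a probe gave 0.20 in WT and -1.32 in Card14-/-, against 0.03 and -0.45 on the probe used, and was not well above background on the Tlr7-/-Tlr9-/- IMQ arrays. In Col1a2 one gave, in WT, Tlr7-/-Tlr9-/- and Card14-/-, -0.40, -1.80 and -1.30, against -0.37, -0.50 and -0.19. The 2 genotypes with the lower values are those whose IMQ arrays lay on slide 2, so genotype and slide cannot be told apart there.

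Promoters from RefSeq (GRCm38.p6, the 250 bases before the start) were matched for 31 of the 40 genes in 34 entries. Motifs were searched on both strands without regard to overlap with other motifs. GGGCGG, the GC box, was found in 18 of 34 collagen entries (52.9%, against 32.7% of all 32851 promoters), CCAAT in 11 (32.4% against 33.8%), TATAAA in 5 (14.7% against 12.4%) and TGANTCA, the AP-1 site, in 1, of Col6a1 (2.94% against 6.75%). Among the called genes with an entry other than Col4a1, any of these 4 motifs was found in that of Col5a3 only. The Col5a3 window and that of Col15a1, the gene that rose, are shown with motif matches in capitals.
Col5a3: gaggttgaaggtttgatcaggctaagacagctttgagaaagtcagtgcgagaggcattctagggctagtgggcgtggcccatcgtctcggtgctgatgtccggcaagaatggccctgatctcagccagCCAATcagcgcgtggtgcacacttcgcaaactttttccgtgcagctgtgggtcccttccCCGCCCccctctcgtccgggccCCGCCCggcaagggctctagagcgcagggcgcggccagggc
Col15a1: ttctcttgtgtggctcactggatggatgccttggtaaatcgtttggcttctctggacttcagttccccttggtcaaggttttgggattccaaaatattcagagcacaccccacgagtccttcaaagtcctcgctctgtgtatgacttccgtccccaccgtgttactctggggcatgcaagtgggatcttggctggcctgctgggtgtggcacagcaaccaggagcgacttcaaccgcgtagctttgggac
They lie at chr9:20815068-20815317 (minus strand) and chr4:47207762-47208011 (plus strand). The 2 GGGCGG matches in the Col5a3 window are on the strand opposite to the gene.

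The response of each genotype was read from the group means, called at an adjusted p under 0.05 (limma) and a change of at least 1 on the log2 scale. In WT, 3 collagen genes fell, Col26a1 by 1.59, Col22a1 by 1.52 and Col6a3 by 1.07, and Col15a1 rose by 1.19. The background in WT was 14.5% in either direction, 6.68% falling and 7.82% rising, against 7.50% and 2.50% of the collagen genes. The median over the 40 genes was -0.48, against -0.13 over all genes, and 34 of 40 values were negative. Col28a1 and Col19a1 had fitted values of -2.67 and -1.90, which were not called and are no measure of size, since Col28a1 was not well above background on the IMQ array and Col19a1 on neither WT array. In WT the largest positive values after Col15a1 were Col9a2 at 0.37 and Col25a1 at 0.29, not called. Col6a3 was read at -1.07 on the probe used, but the mean of its 3 probes was 0.32.

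In Tlr7-/- skin, Col15a1 rose by 1.16 and Col1a1 by 1.11, and Col22a1 fell by 1.11. The background was 7.56% in either direction, 3.93% rising and 3.63% falling, against 5.00% and 2.50% of the collagen genes. The median was 0.02, with 22 of 40 values positive, and 0.42 over the 8 fibrillar genes. Col3a1 had 0.78 and was not called for its size (adjusted p = 0.0123, limma), while Col4a3 (-2.31), Col28a1 (-2.05) and Col24a1 (-1.15) were not called and were not well above background on the Tlr7-/- IMQ array, so their values are no measure of size.

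In Tlr9-/- skin only Col15a1 was called, at 1.01, with a background of 9.07% in either direction, 5.16% rising and 3.91% falling. Col22a1, at -0.93, was not called for its size. Col28a1 and Col24a1 had fitted values of -1.76 and -1.36, not called and no measure of size, since neither was well above background on that IMQ array. Also not called were Col9a2 at 0.37 and Col25a1 at 0.29. In Tlr7-/-Tlr9-/- skin Col22a1 fell by 1.56, against a background of 6.16% in either direction, 2.23% falling and 3.93% rising, and Col15a1 stood at 0.96, under the size limit. Col24a1 (-2.92) and Col19a1 (-1.96) were not called and not well above background on either IMQ array, so these values are no measure of size, and Col2a1 and Col10a1 stood at 0.48 and 0.24. In Card14-/- skin Col22a1 fell by 1.43, against a background of 4.41% in either direction, 1.33% falling and 3.09% rising, with Col24a1 at -1.21 and Col4a4 at -0.67, not called, and Col19a1, Col2a1 and Col15a1 at 0.45, 0.31 and 0.23, not called. Col24a1 and Col19a1 were each well above background on 1 of the 2 Card14-/- IMQ arrays, and Col19a1 not on the untreated one. These 5 responses each rest on their own untreated array. The collagen calls in Tlr7-/- and Tlr9-/- did not hold when either Card14-/- repeat array was left out. Those in Tlr7-/-Tlr9-/- and Card14-/- did not hold without any 1 of the 4 repeat arrays. Calls over all genes fell as well. With the mean of all probes of a gene the collagen counts were 0 in WT, Tlr7-/-, Tlr9-/- and Card14-/-. The counts over all 24078 genes were then 3228, 1637, 1998 and 956.

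**Figure D4:**
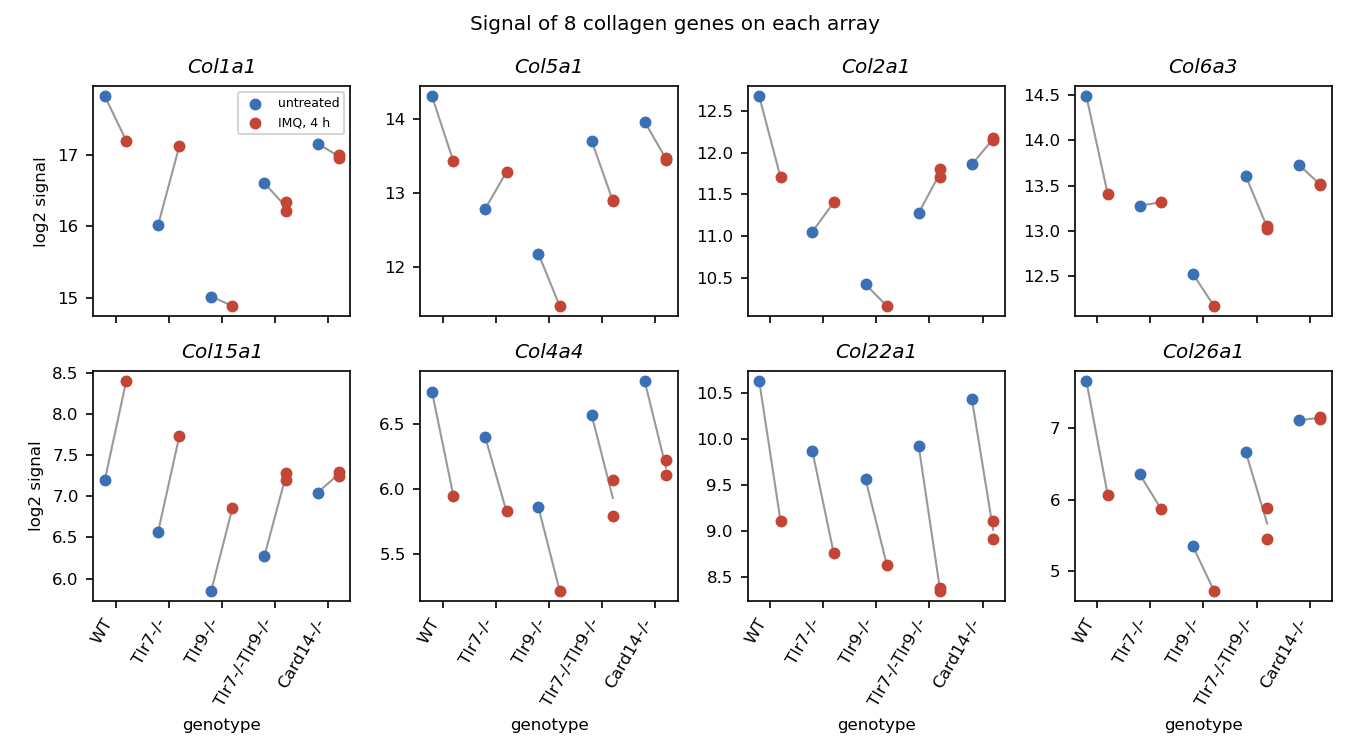
Log2 signal (y axis) of 8 collagen genes on each array, by genotype (x axis). Blue points are untreated arrays, red points IMQ arrays, and grey lines join the untreated array to the mean of the IMQ arrays. Col22a1 and Col4a4 are lower after IMQ in all 5 genotypes, whereas Col1a1 and Col5a1 are higher in Tlr7-/- and lower in the other 4.

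The responses of the 4 mutants were each compared with that of WT, sharing the same 2 WT arrays. Called differences needed an adjusted p under 0.05 (limma) and at least 1 on the log2 scale, and all those called in collagen genes were positive, that is, the mutant's response was the more upward. In Tlr7-/-, 6 collagen genes were called, 15% against 1.22% of all genes in that direction, 2.27% in the other and 3.49% in either. In the same comparison 12 of 15 hair follicle markers were called downward, with a median of -6.28, and their part in the collagen differences was not tested. The 6 collagen genes were Col1a1 at 1.73 ± 0.12 (adjusted p = 0.0291, limma), Col5a1 at 1.38, Col2a1 at 1.31, Col14a1 at 1.14, Col5a2 at 1.12 and Col6a3 at 1.11. In all 6 the difference lay in the untreated arrays. Untreated WT was above untreated Tlr7-/- by 1.81 in Col1a1, 1.52 in Col5a1, 1.62 in Col2a1, 1.15 in Col14a1, 1.16 in Col5a2 and 1.20 in Col6a3. After IMQ, Tlr7-/- minus WT was -0.08, -0.14, -0.30, -0.01, -0.04 and -0.09.

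Other probes gave smaller or opposite differences for 3 of these 6 genes. In Col1a1 the Tlr7-/- minus WT difference was 1.73 on the probe used, 1.07 on another and 0.12 on the remaining one. In Col5a2 it was 1.12 and -1.84, and in Col6a3 1.11, 0.03 and -0.64. Col2a1, Col5a1 and Col14a1 each had 1 probe. The collagen calls did not hold when any 1 of the 4 repeat IMQ arrays was left out, which changes the residual spread but not these values. Calls over all genes fell as well. With the mean of all probes of a gene 3 collagen genes were called, against 668 of all 24078 genes.

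In Tlr7-/-Tlr9-/-, 2 genes were called, Col2a1 at 1.44 and Col5a2 at 1.00, which is 5.00% against 4.60% of all genes upward, 5.62% downward and 10.2% in either direction. In Card14-/- they were Col26a1 at 1.62 and Col2a1 at 1.27, 5.00% against 5.10% upward, 5.43% downward and 10.5% in either direction. For Col2a1 the untreated arrays of WT lay 1.39 above Tlr7-/-Tlr9-/- and 0.81 above Card14-/-, and the mutant minus WT difference after IMQ was 0.05 and 0.46. For Col26a1, whose product is a little studied secreted collagen, untreated WT lay 0.55 above Card14-/-, and Card14-/- lay 1.08 above WT after IMQ. The Card14-/- difference of Col26a1 was 1.82 and -1.48 on the other probes. The calls did not hold, for these or any other genes, when any 1 of the 4 repeat arrays was left out, which leaves fewer residual degrees of freedom. The values in Tlr7-/-Tlr9-/- then ran from 1.39 to 1.49 for Col2a1 and from 0.98 to 1.03 for Col5a2. Those in Card14-/- ran from 1.61 to 1.64 for Col26a1 and from 1.26 to 1.28 for Col2a1. The IMQ arrays of both mutants lay on slide 2, so genotype and slide cannot be told apart. For Tlr9-/- 0 of 40 collagen genes were called (limma, 13 at an unadjusted p under 0.05), with a background of 0.291% upward, 0.818% downward and 1.11% in either direction.

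Dependence on Tlr7 was tested on the 5 responses, 2 lacking Tlr7 against 3 with it. Of the 40 collagen genes 0 were called (limma, 0 at an unadjusted p under 0.05, lowest adjusted p = 1.00), as were 0% of all genes, among which 755 had an unadjusted p under 0.05. The largest values were 0.72 in Col2a1, 0.70 in Col1a1 and 0.58 in Col5a2, and -0.82 in Col4a3, -0.77 in Col24a1 and -0.67 in Col25a1. These 3 negative values are fitted and no measure of size or rank, since the probes were not well above background on 5, 6 and 1 of the 12 arrays. The standard error of the Col1a1 value was 0.47, so differences of this size were not detectable with 5 responses.

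Genes that make, modify, bind or degrade collagen were described from fixed lists, against 10.5% of all genes rising and 15.7% falling in the average response. Of 22 genes for folding and modifying collagen chains, 0 rose and 0 fell, with a median of -0.10. Of 13 genes for processing and cross-linking, 2 fell, the lysyl oxidase relative Loxl3 by 0.40 and the procollagen enhancer Pcolce2 by 0.34. Of 18 collagenases, gelatinases and their inhibitors, 2 rose and 2 fell. Mmp13, an interstitial collagenase, rose by 1.92 and Timp4, an inhibitor, by 0.66, while Mmp11 and Mmp15 fell by 0.96 and 0.39. Of 11 collagen receptors, the integrin subunit Itga1 rose by 3.47 and Itga11 fell by 0.56.

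Of 23 proteoglycans and glycoproteins on fibrils, 7 fell and 0 rose. Postn, a matricellular protein of the dermis, fell by 1.03 and Ogn by 0.73. Of 19 basement membrane partners, 9 fell and 0 rose, with Lama3, the epidermal laminin chain, down by 0.80 and Frem1 by 0.77. Of 21 genes of TGF-beta signalling and its early targets, 4 fell, among them Inhba by 1.04 and Tgfbr3 by 0.31, and Ccn1, a matricellular protein, rose by 0.71. Of 12 fibroblast markers, Pdgfra and Prrx1 fell, by 0.45 and 0.42, and 0 rose. Of 15 chondrocyte markers, Sox5 rose by 1.29 and Hapln1 by 0.62, and Matn3 and Comp fell by 0.67 and 0.46. The Matn3 value is fitted and no measure of size, since its probe lay near background. A Sox5 probe is among the 9 with GGN at each place of the helix spacing. The part of probe composition in the Sox5 rise was not tested.

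Of the other marker lists, Krt1 and Dsp fell among 8 keratinocyte markers, by 0.62 and 0.40, and 0 rose. Among 9 macrophage markers C1qb rose by 0.46 and Adgre1 by 0.29. Lpl fell by 0.48 among 10 adipocyte markers, and Retn and Lep rose by 0.35 and 0.33. Myh1 and Acta1 fell among 10 skeletal muscle markers, by 0.80 and 0.42, with 3 called in all. Sp7 rose by 0.42 among 5 bone cell markers, and 0 of 15 hair follicle markers were called in the average response. By genotype, 8 hair follicle markers rose in WT and 10 in Card14-/-, while 11 fell in Tlr7-/-, 10 in Tlr7-/-Tlr9-/- and 6 in Tlr9-/-. The part of these cells in the collagen responses was not tested.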

How the data were processed

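Spot values are intensity values made by Agilent Feature Extraction 10.7.3.1 per the file headers, with background subtracted within each array (the submitters' processing notes name 10.5.1.1). The authors also deposited a table of log2 values, with limma among the tools in the submitters' processing notes, used as an alternative. Here the processed signal was log2-transformed and quantile normalized (limma 3.58.1, R 4.3.3). Of 56605 probes, 235 with an outlier flag were left out, and 37122 passed, being well above background on 2 or more arrays. A gene's level is that of its probe with the highest mean, named by the reference where it matched. The number of arrays limits the precision.

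The average response was fitted on 5 untreated and 5 IMQ values with genotype as a block (4 residual degrees of freedom). Group contrasts have 2, from the repeats of 2 groups, so a lone array is taken to vary as the repeats do. Tlr7 dependence has 3. All p-values are two-sided, from limma with Benjamini-Hochberg adjustment over 24078 genes. The fits were tested on simulated data. Members and lists were chosen with earlier results of these data known, and nothing is supported by that choice. Named genes are the members called, the brightest of each class, the 3 largest changes each way per response, and the 2 largest called changes each way per list, and 1 gene named by this rule is not reported here. Tables and figures were made with Python 3.11.15, numpy 2.4.6, pandas 2.3.3 and matplotlib 3.10.9.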

Additional observations from a re-analysis of the deposited data

Results flagged for a closer look

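The response of 1 genotype lay far from the other 4 by Dixon's test in 5 of the 80 groups of values examined, where chance gives about 1 in 20. Col1a1 stood at 1.11 in Tlr7-/- and between -0.62 and -0.13 elsewhere, and Col5a1 at 0.50 in Tlr7-/- and between -0.88 and -0.50 elsewhere. Col15a1 stood at 0.23 in Card14-/- and between 0.96 and 1.19 elsewhere. Col24a1 stood at -2.92 in Tlr7-/-Tlr9-/- and between -1.36 and -1.15 elsewhere, fitted values on a probe well above background on 6 arrays, and so no measure of size. Col8a2 stood at -0.43 in WT and between 0.00 and 0.12 elsewhere.

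The responses of mutant and WT differed by limma's test of the difference in 10 cases. In Tlr7-/- they were Col1a1 (1.73), Col5a1 (1.38), Col2a1 (1.31), Col14a1 (1.14), Col5a2 (1.12) and Col6a3 (1.11). In Tlr7-/-Tlr9-/- they were Col2a1 (1.44) and Col5a2 (1.00), and in Card14-/- Col26a1 (1.62) and Col2a1 (1.27). All share the WT arrays.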

How the results depend on the processing

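The number of collagen genes called in the average response was 8, against 6313 of all 24078 genes. With the mean of all probes of a gene it was 5, against 5175. When 1 genotype was left out it ranged from 2, against 1359 (Tlr9-/- left out), to 7, against 2649 (Tlr7-/-) or 5262 (Card14-/-). Without Tlr7-/-Tlr9-/- it was 5, against 3441. With genotype and slide as blocks it was 12, against 11945, and within slide 1 (WT, Tlr7-/- and Tlr9-/-) 7, against 5947. Both fits take the response from the genotypes on slide 1 only, and the former enters each repeat array singly. In the average response Col22a1 was called under every alternative run, and Col4a4 under all but the mean of all probes. With the mean of all probes the counts were 0 for the responses of WT, Tlr7-/-, Tlr9-/- and Card14-/-, against 3228, 1637, 1998 and 956 of all genes. They were 2 for Tlr7-/-Tlr9-/-, against 1324, and 3 for the Tlr7-/- difference, against 668. That alternative also reversed Col6a3 in WT (0.32), Col15a1 in Tlr9-/- (-0.037) and the Col5a2 differences of Tlr7-/- (-0.36) and Tlr7-/-Tlr9-/- (-0.72). With normexp background the counts were 2 for WT (1635 of all genes), 0 for Tlr9-/- (913) and 1 each for the Tlr7-/-Tlr9-/- and Card14-/- differences (1350 and 1404). With the deposited log2 table they were 0 for Tlr9-/- (1214 of all genes), 2 for Tlr7-/-Tlr9-/- (755) and 1 for its difference (1837). With 75th percentile scaling they were 2 for Tlr7-/-Tlr9-/- (1632 of all genes) and 1 for its difference (2377). Without the filter on dim probes the count was 1 for the Card14-/- difference, against 3111 of 36907 genes. Leaving out 1 repeat array kept the number of collagen calls in WT and lost those of Tlr7-/- and Tlr9-/- in some runs. Those of the other responses and of the differences were lost in every run. Calls over all genes fell as well. The cause of these changes was not tested, except that leaving out an array leaves fewer residual degrees of freedom.

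Repeat arrays with the same number did not deviate together (correlation 0.06), so the number does not pair them. With the replicate number as a block, over all genes, calls went from 3490 to 3291 in WT, from 1821 to 250 in Tlr7-/-, from 2185 to 1757 in Tlr9-/-, and to 0 in Tlr7-/-Tlr9-/-, Card14-/- and all 4 differences. Collagen genes called under the replicate block were 0 for Tlr7-/-, Tlr7-/-Tlr9-/-, Card14-/- and the differences.

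Single arrays per untreated group, pooled animals, and probes near background in Col24a1, Col28a1, Col4a3 and Col19a1 limit these values.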
